A study of Mus musculus with 4 samples.

Results

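The 10 genes described here act in cyclic AMP signalling, from receptor to kinase, in dendritic cells grown from mouse bone marrow. They were listed by gene symbol as 4 adenylate cyclases (Adcy3, Adcy6, Adcy7, Adcy9), 2 phosphodiesterases (Pde4b, Pde4d) and a regulatory subunit of protein kinase A (Prkar2b). The other 3 (Calcrl, Ramp1, Ramp3) are components of receptors of the calcitonin gene-related peptide (CGRP) type. All 10 are among the 19938 genes that could be named on the arrays. They were selected on knowledge of their log2 values on the same 4 arrays, so those values are given as a description and no member was tested.

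Bone marrow cells were grown with 10% serum and 20 ng/mL GM-CSF, the cytokine commonly used to obtain dendritic cells in culture. On day 10 they were electroporated with a control siRNA (si-Ctrl) or an siRNA against the orphan nuclear receptor NR4A3 (si-NR4A3). After 24 hours they received 100 ng/mL LPS, a bacterial ligand of the receptor TLR4, or no stimulus, and RNA was taken 24 hours later. The 4 conditions were therefore control siRNA without LPS, NR4A3 siRNA without LPS, control siRNA with LPS and NR4A3 siRNA with LPS. Each had 1 Affymetrix Mouse Gene 1.0 ST array, so no value below has a replicate error. All 4 populations went through electroporation, and the labels give the strain both as BALB/c and as C57BL/6.

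Cyclic AMP is an intracellular messenger made from ATP by adenylate cyclases, which stimulatory G proteins switch on below receptors such as those for prostaglandin E2 and CGRP. It activates protein kinase A by binding the kinase's regulatory subunits, and phosphodiesterases such as those of the PDE4 family break it down. CALCRL, a receptor that couples to stimulatory G proteins, responds to CGRP when paired with RAMP1 and mainly to adrenomedullin when paired with RAMP3. In dendritic cells and macrophages a rise in cyclic AMP is known to dampen the release of inflammatory cytokines, and genes of the NR4A family are themselves known targets of the cyclic AMP-responsive factor CREB.

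RefSeq promoter entries (GRCm38.p6) were found for 9 of the 10 members, with 16 annotated starts in all; Adcy6 was not among them. The 250 bases before each start were searched on both strands for 4 motifs: the NR4A monomer site NBRE (AAAGGTCA), the full CREB site CRE (TGACGTCA), its core (TGACG, which lies inside the full CRE) and an NF-kB form (GGGA, any 2 bases, TTCC). The stretches below are shown because their genes were lower with NR4A3 siRNA in at least 1 state (Ramp3, Pde4d, Calcrl, Pde4b) or, for Adcy7, because its window alone among the members held an NBRE. Capitals mark a motif match. Each stretch ends where the gene's outermost annotated start begins, or, for starts inside the gene model (Pde4b, Adcy7), covers up to 30 bases on either side of the match.
Ramp3, chr11:6658283-6658505, plus strand: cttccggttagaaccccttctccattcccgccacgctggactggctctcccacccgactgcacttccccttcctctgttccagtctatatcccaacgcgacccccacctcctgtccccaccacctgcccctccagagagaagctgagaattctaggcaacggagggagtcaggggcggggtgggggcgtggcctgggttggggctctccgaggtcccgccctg
Pde4d, chr13:108653927-108654176, plus strand: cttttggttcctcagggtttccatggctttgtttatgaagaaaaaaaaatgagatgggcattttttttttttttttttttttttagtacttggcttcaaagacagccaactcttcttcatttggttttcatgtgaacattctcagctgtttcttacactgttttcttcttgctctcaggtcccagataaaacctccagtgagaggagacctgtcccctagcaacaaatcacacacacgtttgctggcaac
Calcrl, chr2:84425406-84425516, minus strand: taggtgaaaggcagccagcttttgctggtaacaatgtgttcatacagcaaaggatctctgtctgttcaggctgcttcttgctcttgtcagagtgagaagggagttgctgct
Pde4b, chr4:102421491-102421554, plus strand: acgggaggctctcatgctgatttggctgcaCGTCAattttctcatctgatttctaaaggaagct
Adcy7, chr8:88282742-88282801, plus strand: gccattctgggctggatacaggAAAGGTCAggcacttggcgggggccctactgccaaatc

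None of the 4 motifs was in the windows of Ramp3, Pde4d or Calcrl. The CRE core was in 3 of the 16 member windows, at Pde4b, Adcy7 and Adcy9, and 17.8% of all 32851 promoters of this length in the table hold it. The NBRE was in 1 of 16 windows, that of Adcy7, against 1.34% of all promoters. The full CRE and the NF-kB form were in 0 of 16, and 1.55% and 1.21% of all promoters hold them. The window of Nr4a3, the silenced gene, held 4 matches of the CRE core. A match is a stretch of letters and not a measured binding site.

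The receptor components parted from each other. Ramp3, the partner that turns CALCRL towards adrenomedullin, stood at 9.95 (log2 expression) with control siRNA and 7.07 with NR4A3 siRNA without LPS, and at 10.62 and 9.33 with LPS. Both control arrays were thus higher than both NR4A3 siRNA arrays. Its level was 7.35-fold lower with NR4A3 siRNA without LPS (rank 9 from the lowest of 10257 genes) and 2.43-fold lower with LPS (rank 81 of 10210). LPS-treated cells held 1.58-fold more Ramp3 signal with control siRNA and 4.79-fold more with NR4A3 siRNA, so that the LPS differences lay 1.60 apart on the log2 scale, the widest gap among the 10 members. The targeted gene itself, Nr4a3, went from 11.21 to 7.15 between the siRNAs without LPS and from 11.77 to 9.39 with LPS.

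Ramp1, the partner that completes the CGRP receptor, went the other way with LPS. It stood at 8.15 and 8.80 without LPS in cells with control and NR4A3 siRNA, and at 6.25 and 6.27 with LPS. Both unstimulated arrays were higher than both LPS arrays. The difference was 3.75-fold lower with control siRNA and 5.77-fold lower with NR4A3 siRNA, rank 75 of 10346 and rank 18 of 10353 genes from the lowest. The LPS values lay below the level of 6.66, the median of all gene values, under which a value was treated as dim, so these folds are approximate. Without LPS, Ramp1 was 1.56-fold higher with NR4A3 siRNA, and with LPS the siRNAs differed by 0.02 (log2).

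Calcrl, whose product both partners escort to the cell surface, moved less. Its levels were 9.35 with control and 8.46 with NR4A3 siRNA without LPS, and 9.11 and 8.68 with LPS. Both control arrays were again above both NR4A3 siRNA arrays. It was 1.85-fold lower with NR4A3 siRNA without LPS and 1.35-fold lower with LPS. LPS against no LPS gave -0.24 with control siRNA and 0.22 with NR4A3 siRNA, both short of 1.5-fold.

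**Figure D1:**
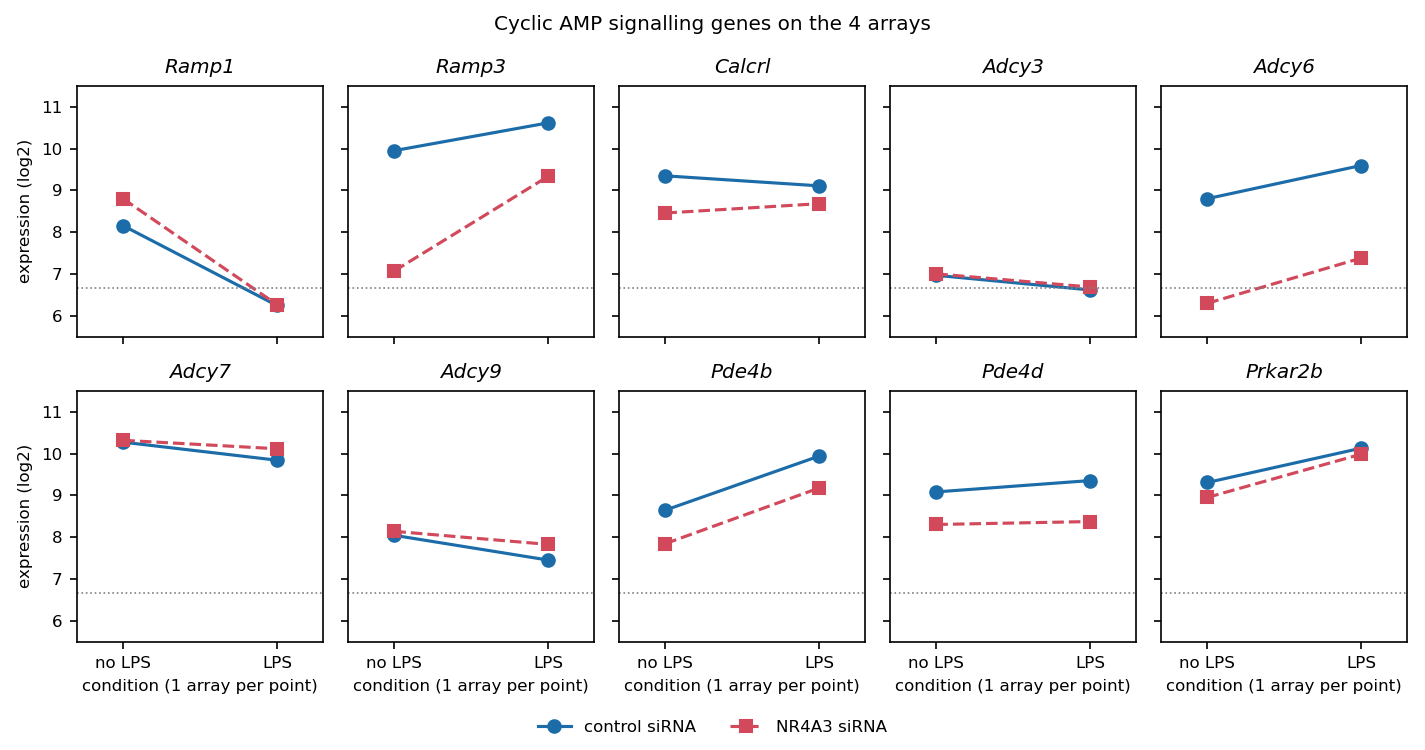
Expression (log2) of the 10 cyclic AMP signalling genes without and with LPS, 1 point per array, for control siRNA (circles, solid line) and NR4A3 siRNA (squares, dashed line); the dotted line is the level of 6.66 under which a value was treated as dim. The lines lie far apart for Adcy6 and Ramp3, run parallel for Pde4b and Pde4d, fall steeply with LPS for Ramp1, and nearly coincide for Adcy3.

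Among the adenylate cyclases, which make cyclic AMP, Adcy6 stood apart from the other members of its family. Adcy6, a calcium-inhibited isoform, was at 8.80 with control siRNA and 6.30 with NR4A3 siRNA without LPS, and at 9.60 and 7.38 with LPS. The control arrays were higher in both states, and the NR4A3 siRNA array without LPS was the only one of the 4 below the dim level. The difference was 5.67-fold without LPS (rank 20 of 10257 from the lowest) and 4.65-fold with LPS (rank 14 of 10210). The LPS arrays were 1.73-fold above the unstimulated ones for control siRNA and 2.11-fold above for NR4A3 siRNA. In the latter case the lower of the paired levels was the dim one, so the fold is approximate, as is that of the siRNAs without LPS.

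The other cyclases stayed within 1.5-fold between the siRNAs. Adcy7, an isoform prominent in blood cells, was at 10.27 and 10.32 without LPS and at 9.84 and 10.12 with LPS, in the order control and NR4A3 siRNA. Adcy9, a widely expressed isoform, was at 8.04 and 8.14 without LPS and 7.45 and 7.83 with LPS. Its LPS difference with control siRNA, 1.51-fold lower, was just past 1.5-fold, and it fell short under each of 3 other scalings of the arrays (-0.57 to -0.56 on the log2 scale). Adcy3 was at 6.97 with control siRNA and 0.03 higher with NR4A3 siRNA without LPS, and at 6.62 and 6.69 with LPS, close to the dim level throughout. All 3 of these genes were lower with LPS under either siRNA, by 1.15-fold to 1.51-fold.

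Both PDE4 genes, whose enzymes degrade cyclic AMP, were lower with NR4A3 siRNA in both states. Pde4b, the isoform that LPS is known to induce in myeloid cells, was at 8.65 and 7.84 without LPS and at 9.94 and 9.17 with LPS, in the order control and NR4A3 siRNA. It was 1.74-fold and 1.70-fold lower with NR4A3 siRNA without and with LPS, and 2.45-fold and 2.51-fold higher with LPS under control and NR4A3 siRNA. The LPS differences were 0.04 apart on the log2 scale. Both LPS arrays were above both unstimulated ones.

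Pde4d was at 9.08 and 8.30 without LPS and at 9.35 and 8.37 with LPS. It was 1.72-fold and 1.97-fold lower with NR4A3 siRNA, and LPS moved it by 0.27 and 0.07 (log2) under control and NR4A3 siRNA. Both control arrays were above both NR4A3 siRNA arrays. Pde4d alone among the members had several probe sets, and all 3 were lower with NR4A3 siRNA, with differences of -1.14 to -0.58 (log2) without LPS and -1.26 to -0.66 with LPS. The dimmest probe set lay below 6.66 on all 4 arrays. The one with the widest differences was dim on both NR4A3 siRNA arrays (6.45 and 6.56), so the ends of these ranges are approximate. For LPS the probe sets disagreed, since the dimmest of them was lower with LPS (-0.23 with control siRNA) while the brightest was higher.

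Prkar2b, a regulatory subunit that holds protein kinase A inactive until cyclic AMP binds, differed with LPS rather than between the siRNAs. It was at 9.31 and 8.95 without LPS and at 10.13 and 9.98 with LPS. LPS-treated cells held 1.77-fold more signal with control siRNA and 2.05-fold more with NR4A3 siRNA, and both LPS arrays were above both unstimulated ones. The siRNAs differed by 1.28-fold without LPS and 1.11-fold with LPS, lower with NR4A3 siRNA.

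A gene was counted when it differed by at least 1.5-fold and the brighter array of the pair reached 6.66. Between the siRNAs without LPS all 10 members passed this level, and 5 were counted as lower (Adcy6, Pde4b, Pde4d, Ramp3, Calcrl) and 1 as higher (Ramp1), beside 4.69% lower and 1.62% higher of all genes. With LPS 9 passed, and 4 were lower (Adcy6, Pde4b, Pde4d, Ramp3) and 0 higher, beside 4.73% and 3.73% of all genes. For LPS with control siRNA, 2 of 10 were lower (Adcy9, Ramp1) and 4 higher (Adcy6, Pde4b, Prkar2b, Ramp3), beside 9.44% and 10.2%. For LPS with NR4A3 siRNA, 1 was lower (Ramp1) and the same 4 were higher, beside 6.88% and 10.3%. Since the members were listed with these values in view, nothing is read from these shares. The median member difference between the siRNAs was -0.57 in unstimulated and -0.29 in LPS-treated cells, and that of LPS was 0.02 and 0.15 under control and NR4A3 siRNA. Over all genes that passed, these medians were 0.02, 0.05, -0.02 and 0.02.

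**Figure D2:**
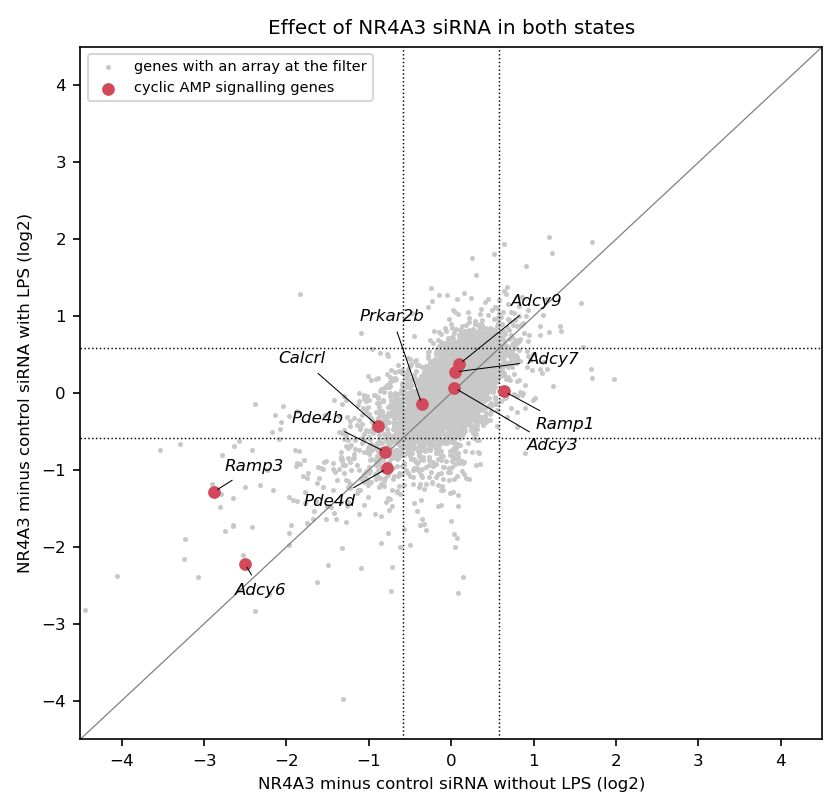
NR4A3 minus control siRNA without LPS (horizontal, log2) against the same with LPS (vertical, log2) for the 10 members (red) and the 10592 genes with at least 1 array at 6.66 (grey); dotted lines mark 1.5-fold. Adcy6 (-2.50 and -2.22) lies close to the line of equal effects, while Ramp3 (-2.88 and -1.28) lies above it.

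**Figure D3:**
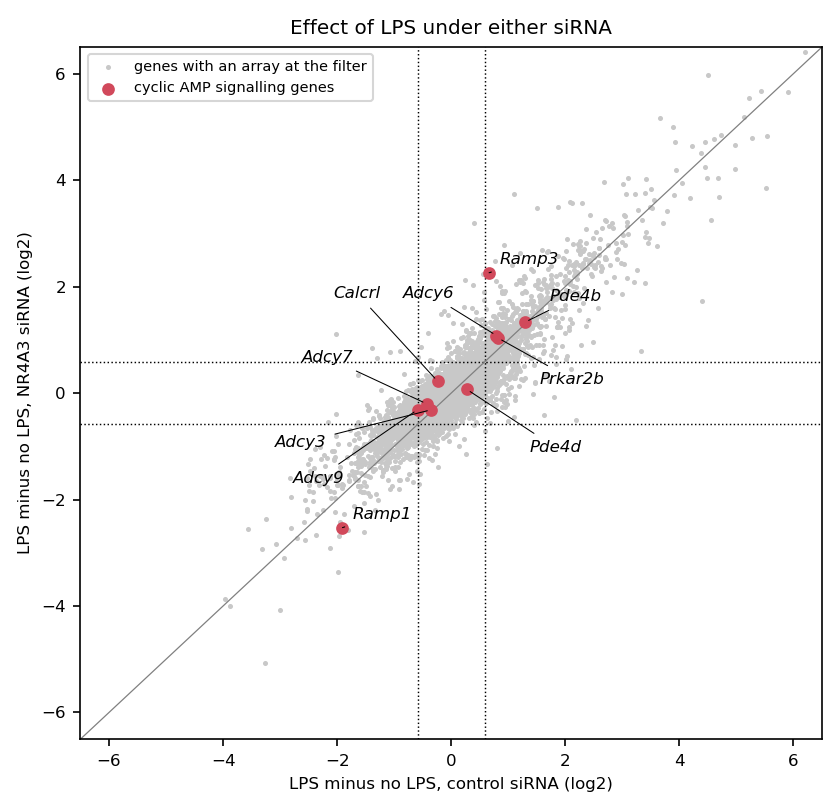
LPS minus no LPS with control siRNA (horizontal, log2) against the same with NR4A3 siRNA (vertical, log2), for the same genes; dotted lines mark 1.5-fold. Ramp1 (-1.91 and -2.53) lies at the lower left, Pde4b (1.29 and 1.33) on the line of equal effects, and Ramp3 (0.66 and 2.26) far above it.

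For the 6 members whose highest and lowest arrays differed by at least 2-fold, the genes with the most similar pattern were found by Euclidean distance of log2 values centred on each gene's mean over the 4 arrays, among 10592 genes. For Adcy6 they were Adgrg6 (distance 0.12), Tcaf2 (0.35) and Mall (0.44). Adgrg6, an adhesion G protein-coupled receptor known to raise cyclic AMP in Schwann cells, was at 10.39 and 7.86 without LPS and at 11.20 and 9.09 with LPS, in the order control and NR4A3 siRNA. For Ramp3 they were Nudt17 (0.15), Mmp25 (0.18) and Serpinb6b (0.40). For Ramp1 they were Cd2 (0.24), Asgr2 (0.31) and Ifi27 (0.34). For Pde4b they were Btla (0.15), Marcksl1 (0.17) and A530032D15Rik (0.19), for Pde4d Chm (0.07), Nuak2 (0.10) and Atmin (0.11), and for Prkar2b Pbxip1 (0.06), Sbds (0.08) and Serpinb1b (0.09). A distance over 4 arrays separates few patterns, and it is given as a description.

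The wider pathway was described with 10 lists of receptors, G protein regulators, enzymes, anchors and CREB-linked genes, of which 116 genes outside the members were measured. Between the siRNAs, 8 of 71 that passed the level were lower and 2 higher without LPS (4.69% and 1.62% of all genes), and 10 of 74 were lower and 3 higher with LPS (4.73% and 3.73%). The lower genes include Nr4a3, the siRNA's target, in both states. For LPS, 12 of 74 were lower and 11 higher with control siRNA (9.44% and 10.2% of all genes), and 13 of 75 were lower and 10 higher with NR4A3 siRNA (6.88% and 10.3%). The medians of those that passed were -0.05 for the siRNAs in either state, and 0.03 and 0.00 for LPS with control and NR4A3 siRNA. The lists were chosen with earlier results of these data known, so nothing is read from their shares, here or below.

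These pathway genes were also tested over all 4 arrays with an additive model of siRNA and LPS (limma, Benjamini-Hochberg over 10592 genes), which leaves 1 residual degree of freedom. That 1 degree of freedom is the difference of the siRNA effect between the LPS states, so the model counts such a difference as error. The p-values hold no replicate scatter, and no label states whether the cultures were independent. For genes whose effect differed between the states, such as Gpr65 and Fos, the average hides that difference. Of 76 pathway genes tested, 8 were lower and 2 higher with NR4A3 siRNA at an adjusted p under 0.05, beside 3.58% and 1.98% of all genes. The target Nr4a3 was among the 8. Since the lists were chosen with earlier results of these data known, these p-values and those below are given as description. Without the filter on dim genes, 3 of the lower genes passed (Pkib, Nfil3 and Ptger4) and none of the higher ones, with the target Nr4a3 and Grk6 each at a limma adjusted p of 0.054, Gpr65 at 0.10, Crem at 0.073, Sik3 at 0.071, Creb3 at 0.093 and Entpd1 at 0.068. Creb3 also missed after cyclic loess scaling (0.060). With LPS, 17 were lower and 19 higher, beside 14.4% and 15.6% of all genes. Without the filter, Crtc3 (limma adjusted p = 0.057) among the lower and Arrb2, Grk3 and Nr4a3 (0.051, 0.084 and 0.094) among the higher genes missed.

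Among the other receptors that raise cyclic AMP, 16 were measured. Ptger4, the prostaglandin E2 receptor EP4, fell with NR4A3 siRNA, from 10.02 to 9.23 without LPS and from 10.73 to 9.78 with LPS (average -0.87, SE 0.10, limma adjusted p = 0.016). Ptger2, the other cyclic AMP-raising prostaglandin E2 receptor, was at 7.14 and 7.45 without LPS and 5.99 and 6.67 with LPS, and its average of 0.50 for the siRNA did not pass (limma adjusted p = 0.074). With LPS, Ptger4 rose by 0.63 and Ptger2 fell by 0.97 on average (limma adjusted p = 0.0070 and 0.0030). The Ptger2 value of 5.99 was dim, so both of its averages are approximate. Gpr65, an acid-sensing receptor, had the widest siRNA difference of this list, from 9.82 to 8.96 without LPS and from 10.79 to 8.84 with LPS (average -1.40, SE 0.25, limma adjusted p = 0.038). Htr7, a serotonin receptor, rose with LPS by 0.92 on average (limma adjusted p = 0.0016), from 5.89 to 6.85 with control siRNA. Both of its unstimulated values, 5.89 and 5.80, were dim, so the size of this rise is approximate.

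In the CGRP and adrenomedullin list, 9 genes outside the members were measured and few were bright. Crcp, which encodes a component needed for CGRP receptor signalling, rose with LPS by 0.62 on average (limma adjusted p = 0.0093). Ramp2, Calcr, the decoy receptor gene Ackr3, Gpr182 and the ligand genes Adm, Adm2 and Iapp lay below 6.66 on all 4 arrays. Calcb, a CGRP gene, lay between 6.29 and 6.80.

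Of the G protein regulators, the receptor kinase gene Grk6 fell with NR4A3 siRNA by 0.63 on average (limma adjusted p = 0.029). Rgs1 and Rgs2, which encode inhibitors of G protein signalling, went opposite ways with LPS: Rgs1 rose by 1.03 and Rgs2 fell by 1.27 on average (limma adjusted p = 0.0052 and 0.0046). Grk5 fell by 0.93 and Arrb1, the gene of beta-arrestin-1, by 0.71 on average with LPS (limma adjusted p = 0.0016 and 0.0042). The inhibitory alpha subunit genes Gnai2 and Gnai3 differed by at most 0.32 (log2) in the 4 comparisons.

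In the remaining cyclases, only Adcy4 reached the dim level on any array, at 6.61 to 6.86. Of 14 other phosphodiesterase genes, 7 passed the level between the siRNAs without LPS and 9 with LPS. None was counted in either state, beside 4.69% lower and 1.62% higher of all genes without LPS and 4.73% and 3.73% with LPS. With LPS, Pde11a rose from 6.38 to 8.73 with control siRNA and from 6.17 to 8.68 with NR4A3 siRNA (average 2.43, SE 0.10, limma adjusted p = 7.4e-05), the largest difference of the list. Both unstimulated values were dim, so its size is approximate. Pde3b and Pde2a fell by 0.93 and 0.87 and Pde7b rose by 0.57 on average (limma adjusted p = 0.0092, 0.0034 and 0.0086).

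Pkib, which encodes an inhibitor of protein kinase A, fell with NR4A3 siRNA from 9.13 to 8.01 without LPS and from 9.96 to 8.70 with LPS (average -1.19, SE 0.10, limma adjusted p = 0.0092). It rose with LPS by 0.76 on average (limma adjusted p = 0.0036). None of the other 7 measured genes of the kinase and Epac list outside the members passed 1.5-fold in any comparison. With Pkib included, 5 of these 8 genes passed the level. For LPS, 9.44% of all genes were lower and 10.2% higher with control siRNA, and 6.88% and 10.3% with NR4A3 siRNA. With so few genes past the level, nothing is read from this count. Among the A-kinase anchors, which tether the kinase inside the cell, 0 of 9 passed 1.5-fold between the siRNAs. Of all genes, 4.69% were lower and 1.62% higher without LPS, and 4.73% and 3.73% with LPS. With LPS, Pakap (listed as Akap2) fell by 0.95, Akap7 fell by 0.61 and Akap13 rose by 0.54 on average (limma adjusted p = 0.0018, 0.0086 and 0.011). Pakap was dim with LPS under control siRNA (6.25), so its fall is approximate.

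Of the CREB factors and coactivators, Crem and the CREB coactivator kinase gene Sik3 fell with NR4A3 siRNA by 0.59 and 0.57 on average, and Creb3 rose by 0.75 (limma adjusted p = 0.038, 0.038 and 0.042). Creb1, the main factor, lay between 9.09 and 9.37 on the 4 arrays. Crtc2, a coactivator, rose with LPS by 0.91 (limma adjusted p = 0.0020). Of 18 known CREB targets measured, 15 passed the level. Between the siRNAs, 3 of these were lower and 0 higher without LPS (4.69% and 1.62% of all genes), and 4 were lower and 1, Fos, higher with LPS (4.73% and 3.73%). Nr4a3 was among the lower ones in both. Nfil3, a transcriptional repressor, fell by 0.89 on average with NR4A3 siRNA (limma adjusted p = 0.013). Nr4a2 was at 7.79 and 7.48 without LPS and 9.79 and 8.60 with LPS, and its siRNA average of -0.75 did not pass (limma adjusted p = 0.094). Fos was at 9.17 and 8.71 without LPS and 7.16 and 7.90 with LPS, and fell with LPS by 1.41 on average (limma adjusted p = 0.013). Ccna2, a cell cycle gene of this list, fell by 2.81 on average with LPS (limma adjusted p = 0.00047).

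The last list held the cyclic AMP exporter gene Abcc4 and 4 genes that make or clear adenosine, a ligand of cyclic AMP-raising receptors. Of its 5 genes, 3 were at least 1.5-fold lower with LPS under either siRNA, beside 9.44% of all genes with control and 6.88% with NR4A3 siRNA. Nt5e, the enzyme CD73 that makes adenosine, fell by 1.65, the transporter gene Slc29a1 fell by 0.75 and Entpd1, the enzyme CD39, fell by 0.67 on average (limma adjusted p = 0.0025, 0.0056 and 0.0051). With NR4A3 siRNA Entpd1 rose by 0.58 on average (limma adjusted p = 0.036).

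**Figure D4:**
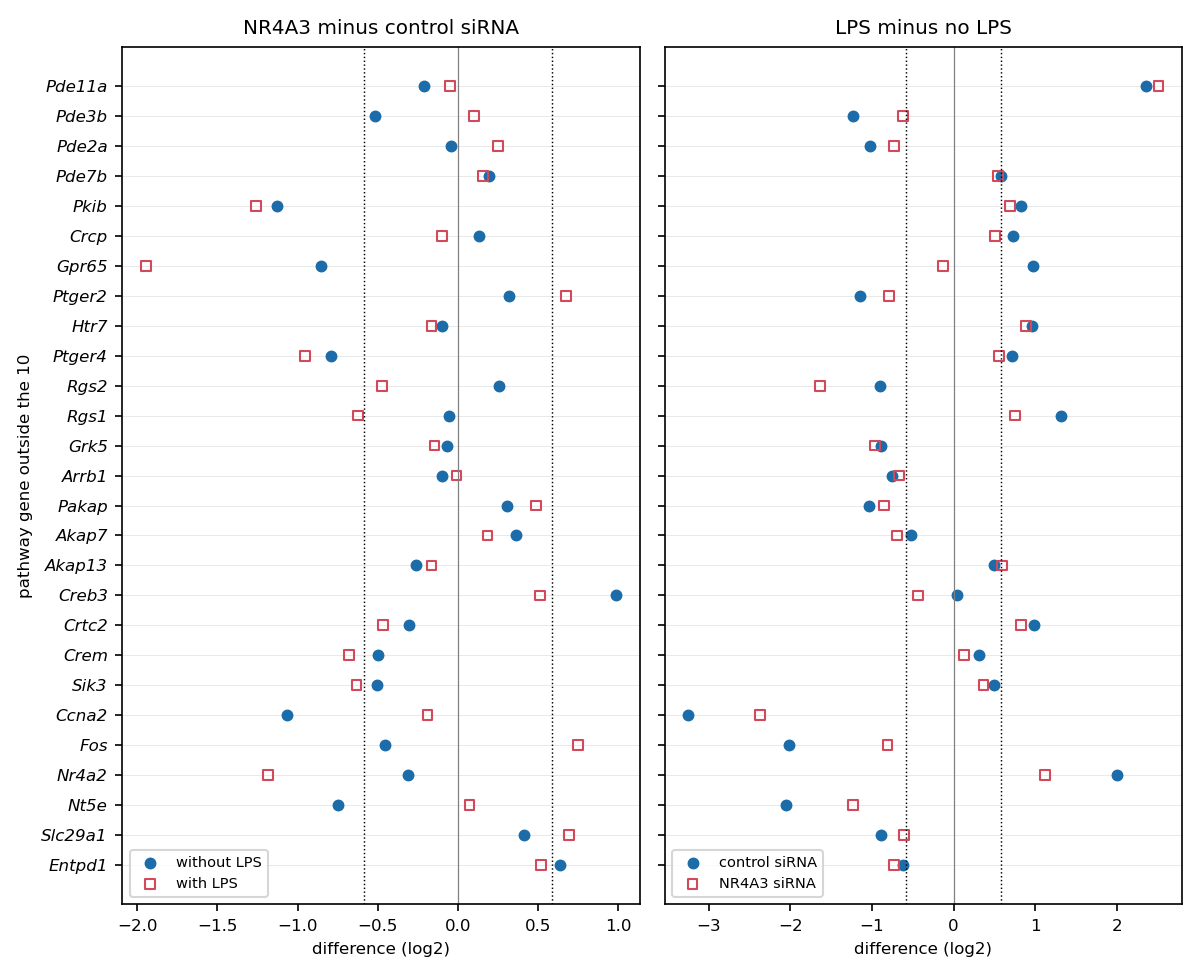
Log2 differences of pathway genes outside the 10 members, up to 4 per list with the widest counted difference, without Nr4a3. Left: NR4A3 minus control siRNA without LPS (filled circles) and with LPS (open squares). Right: LPS minus no LPS with control siRNA (filled circles) and NR4A3 siRNA (open squares). Dotted lines mark 1.5-fold, and each point is a difference of 2 arrays. Grk6 and Nfil3, also lower beyond 1.5-fold between the siRNAs in both states, are not shown. Pkib, Gpr65 and Ptger4 lie beyond 1.5-fold on the lower side of the left panel in both states, and Pde11a lies far to the right in the right panel.

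Of 10 dendritic cell markers, 9 reached 6.66 on some array, with Itgax at 12.38 to 12.89 and Cd74 at 13.38 to 13.47, and Flt3 below it throughout. Calcrl and the RAMPs are also known in endothelial cells, and of 7 endothelial markers Pecam1, Tek, Cldn5 and Emcn lay below 6.66 on all 4 arrays, while Kdr, Tie1 and Cdh5 did not. The summed signal of that list was 9.35 and 9.37 (log2) without LPS and 10.18 and 10.41 with LPS, with Kdr at 6.69 and 9.46 under control siRNA. Tie1 went the other way, from 7.97 to 6.81 under control siRNA and from 8.09 to 7.22 under NR4A3 siRNA. The list's median LPS difference was 0.03 and 0.06 under control and NR4A3 siRNA. The 7 macrophage markers summed to 14.31 and 14.59 without LPS and 14.44 and 14.85 with LPS, higher with NR4A3 siRNA in both states, while the 10 dendritic cell markers summed to 15.37 and 15.14 without LPS and 15.32 and 15.13 with LPS. Within the dendritic cell list the markers went different ways: without LPS, Ccr7 was at 12.99 and 9.46 and Cd209a at 8.90 and 10.87 with control and NR4A3 siRNA, and the list's median difference was -0.02. All 7 macrophage markers reached 6.66 on some array, and they too went different ways. Adgre1 and Fcgr1 were higher with LPS under either siRNA, and the others were lower. Their median LPS difference was -0.29 and -0.22 under control and NR4A3 siRNA. Fcgr1 with LPS was at 11.90 with control and 11.74 with NR4A3 siRNA, against the direction of the sum. The 3 monocyte markers measured summed to 11.98 and 11.91 without LPS and 10.35 with LPS under either siRNA, with F13a1 and Ccr2 lower and Plac8 higher with LPS. The 6 stromal markers summed to 9.60 and 9.65 without LPS and 10.70 and 10.91 with LPS, with Dcn at 7.30 and 9.99 under control siRNA and Lum below 6.66 on all 4 arrays. Most of that list did not share the rise of Dcn. Its median LPS difference was 0.10 and -0.02 under control and NR4A3 siRNA. Col1a1 (7.20 and 7.13 under control siRNA) and Col3a1 (6.93 and 6.86) were slightly lower with LPS. Markers of T, B and NK cells lay below 6.66 on all 4 arrays. The neutrophil, eosinophil, and mast cell and basophil lists each had 1 marker that reached 6.66. Neutrophil S100a8 lay at 7.83 to 8.49. Siglecf of the eosinophil list was at 10.21 and 9.96 without LPS and 8.04 and 9.41 with LPS, control siRNA first. In the same order, Kit of the mast cell list was at 6.97 and 5.88, then 7.21 and 7.99. The part of these shifts in the members' differences was not tested, and fewer cells of a type and less RNA per cell cannot be told apart in such samples. Of 1027 olfactory receptor genes, which such cells are not known to use, 95% lay below 5.78 to 5.93 on the 4 arrays. On the same arrays 99% lay below 6.60 to 6.65. Ramp1 with LPS (6.25 and 6.27), Adcy6 without LPS under NR4A3 siRNA (6.30) and Adcy3 with LPS under control siRNA (6.62) lay between those levels. These values cannot be told clearly from background.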

How the data were processed

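Total RNA of 4 samples, 1 per condition, was hybridised to Affymetrix Mouse Gene 1.0 ST arrays. The authors deposited log2 values from RMA, quantile-normalized per the labels. Affymetrix Expression Console 1.1 is listed in the submitters' processing notes. Their filters and build were not given in the sources used here. Quantile normalization hides a shift of most genes in 1 direction.

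Of 28856 probe sets, 21789 had 1 gene symbol in the platform annotation, 1621 had several and 5446 had none here. The 19938 genes were taken at their brightest probe set by mean. Each comparison is a log2 difference between single arrays, printed also as a fold. The members were described without a test. Pathway genes outside them were tested with limma 3.58.1 (R 4.3.3) over genes with at least 1 array at 6.66. The code was checked on simulated data with additive changes and independent noise. That check does not cover genes whose siRNA effect differs between the LPS states. The 10 members, the gene lists and the rules were chosen with earlier results of these data known. Named pathway genes were up to 4 per list with the widest counted difference; genes named beyond these were chosen after their values were seen. Of 137 list symbols, members included, 126 had a probe set with 1 symbol, and the others were not analysed here. Alternatives were 3 scalings, other folds (2-fold, 3-fold) and filters (none, 8.67), and the mean of probe sets. With 4 arrays, precision is limited by their number.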

Additional observations from a re-analysis of the deposited data

Results flagged for a closer look

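With 1 array per condition, a gene was picked out when its difference took opposite directions in the 2 states; for genes outside the members, the effects also had to lie at least 1.5-fold apart. None of these differences between states was tested. Among the members this met Calcrl alone, whose LPS difference was -0.24 with control siRNA and 0.22 with NR4A3 siRNA, 0.46 apart. Gpr65 was 0.97 higher with LPS under control siRNA and differed by -0.13 under NR4A3 siRNA, a gap of -1.09. Between the siRNAs, Fos was at -0.46 without LPS and 0.75 with LPS, 1.21 apart. Nt5e was at -0.75 and 0.07, 0.82 apart. Pde3b was at -0.52 and 0.10, 0.62 apart. Rgs2 was at 0.26 and -0.47, a gap of -0.73.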

How the results depend on the processing

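None of the 40 member differences that was counted changed direction under any alternative. Under the 3 scalings and the mean of probe sets they moved by at most 0.18 (log2), for Pde4d with LPS, and the only count that changed was that of members lower with LPS under control siRNA, which went from 2 to 1 under each scaling because Adcy9 missed 1.5-fold. At 2-fold, 2 members were lower with NR4A3 siRNA in either state and 0 higher without LPS; for LPS with control siRNA 1 was higher and 1 lower. At 3-fold, 2 and 1 were lower with NR4A3 siRNA without and with LPS and 0 higher without LPS; 0 were higher and 1 lower for LPS with control siRNA, and 1 was higher for LPS with NR4A3 siRNA. With the filter at 8.67, 0 were lower for LPS with control siRNA, Pde4b was no longer counted between the siRNAs without LPS (4 lower), nor Adcy6 for LPS with NR4A3 siRNA (3 higher). Pathway genes outside the members numbered, at 2-fold, 3 lower and 0 higher between the siRNAs without LPS, 4 and 0 with LPS, 7 and 4 for LPS with control siRNA, and 3 and 4 with NR4A3 siRNA; at 3-fold they numbered 1 and 0, 2 and 0, 3 and 2, and 2 and 2. With the filter at 8.67, 1 was higher with NR4A3 siRNA under LPS. These shifts follow from the stricter limits. The pathway counts are out of the 116 genes measured outside the members. The shares of all genes at those limits are not given here, so nothing is read from these counts. In the additive limma fit, 3 pathway genes were lower and 0 higher with NR4A3 siRNA without a filter, and 1 was higher after cyclic loess; the cause was not tested. No paired analysis was possible because each condition has 1 array and the labels carry no replicate numbers.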
